A study of Arvicanthis niloticus with 5 samples.

Results

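Genes of the extracellular matrix other than collagens were examined in RNA of the Nile rat eye. The set covered small leucine-rich proteoglycans, matricellular glycoproteins, elastic fibre genes and the proteases that cut matrix, with their inhibitors. Members were taken by symbol alone: Dcn, Lum, Kera, Ogn, Fmod, Prelp, Bgn, Optc, Vcan, Sparc, Sparcl1, Fn1, Tnc, Eln and Lox, and every numbered gene of the Thbs, Fbn, Fbln, Loxl, Mmp, Timp, Adamts, Adamtsl and Has families. The rule found 55 genes among the 13982 genes that carried a symbol, on 61 transcripts. The Nile rat (Arvicanthis niloticus) is a day-active African rodent. The labels list 5 wild-type eye samples, numbered 1, 3, 5, 7 and 9, in 1 group, and say that RNA from 5 rats was pooled for the library. The labels used here give no age, treatment or sampling time. Expression was deposited as 1 column for the whole series. No source used here states whether that column sums the 5 samples or holds 1 of them. It is treated as 1 pool, and without replicate values no test between animals could be made. Levels are in FPKM, that is fragments mapped to a transcript per kilobase of its length and per 1000000 fragments mapped in all, and intervals in square brackets are 95% intervals for counting error only.

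The matrix of the eye holds very different tissues side by side. In the transparent corneal stroma, small leucine-rich proteoglycans coat collagen fibrils and regulate their diameter and spacing, while elastic microfibrils of fibrillin form the zonule that suspends the lens. Metalloproteinases of the MMP and ADAMTS families cut matrix proteins, and the tissue inhibitors of metalloproteinases (TIMPs) bind and block them, a balance that has been studied above all in the outflow pathway of aqueous humour and in the membrane under the retinal pigment epithelium.

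A few members held most of the matrix RNA. Of the 55 genes, 53 reached FPKM 1, against 93.2% of all named genes. At FPKM 10 there were 17 members (30.9%), against 34.0% of all named genes, so in this middle range the set resembled the background. At FPKM 100 there were 4 members (7.27%), against 2.21%: Dcn, Sparc, Timp3 and Timp2. The median member stood at 5.09 FPKM, below the 6.50 FPKM of all named genes. As fragments not divided by length the order turned, with a median of 1132 for the members and 1078 for all named genes. The members made up 0.393% of named genes and held 0.764% [0.761 to 0.767] of their FPKM. Dcn and Sparc together held 53.5% of the 1881 FPKM of the set, the highest 5 genes 70.3% and the highest 10 genes 85.7%. With Dcn and Sparc left out, the share of named FPKM fell to 0.357%.

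**Figure D1:**
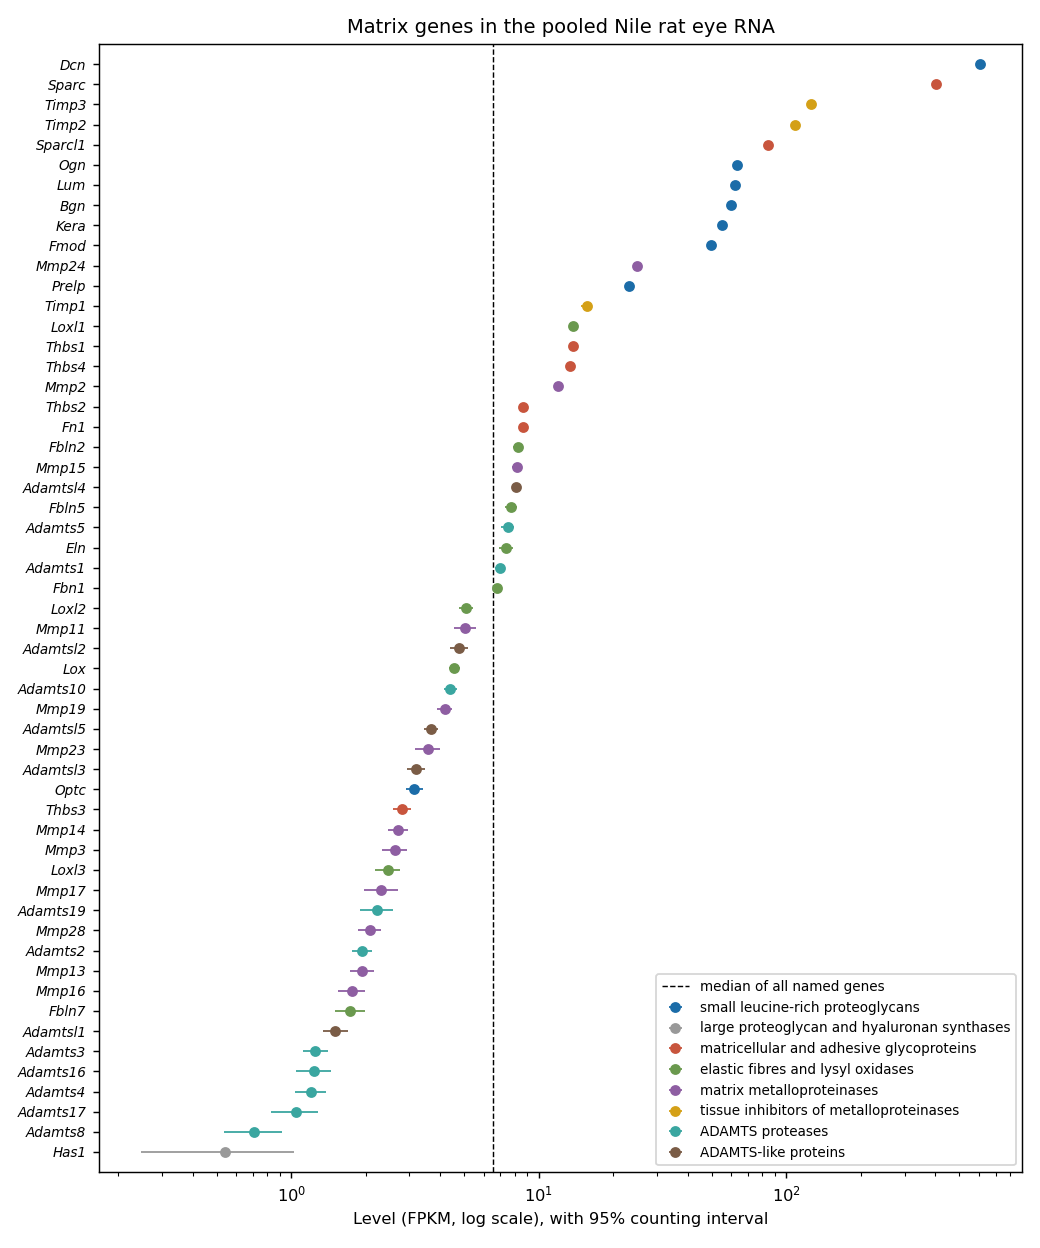
Level of each of the 55 matrix genes in the pool, in FPKM on a log axis, coloured by class; bars are 95% counting intervals and the dashed line is the median of all named genes (6.50 FPKM). Proteoglycans, the SPARC family and 2 of the inhibitors take the top 10 places, from Dcn at 603 to Fmod at 49.4 FPKM, and ADAMTS genes take most of the places under 2 FPKM.

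The order of the highest genes in summed FPKM was mostly beyond counting error. Among the 17 members at FPKM 10 or more, 13 of the 16 steps from a gene to the next lower one had a ratio interval that did not hold 1. The exceptions were Ogn over Lum, Loxl1 over Thbs1 and Thbs1 over Thbs4. Some other places depended on the unit or the sum. Sparc held more fragments than Dcn (65382 against 57025). Bgn stood at 46.4 FPKM with its higher transcript, below Kera (55.1 FPKM) and Fmod (49.4 FPKM). Over all 55 members, 36 of the 54 steps were within counting error, so the order of the lower genes was not resolved.

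Small leucine-rich proteoglycans were the largest class, with 48.8% of the set's FPKM in 8 genes. All 8 reached FPKM 1, against 93.2% of all named genes, and 7 reached FPKM 10, against 34.0%. The class median was 57.4 FPKM. Decorin (Dcn), which binds collagen fibrils and carries a chondroitin or dermatan sulfate chain, stood at 603 FPKM [598 to 608] on 57025 fragments and ranked 25 among all named genes. Biglycan (Bgn), its closest relative, stood at 59.6 FPKM, so that Dcn was 10.1-fold [9.85 to 10.4] higher. The log2 ratio was 3.34 in FPKM and 2.75 as fragments not divided by length. Bgn was the sum of 2 transcripts, of 46.4 and 13.2 FPKM. These class I genes held 72.1% of the FPKM of the proteoglycan class.

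The 4 genes of class II, which include the keratan sulfate proteoglycans of the cornea, held 20.7% of that FPKM, and Lum, Kera and Fmod among them lay close together. Lumican (Lum), needed for a transparent cornea, stood at 62.2 FPKM [61.0 to 63.4] on 10022 fragments. Keratocan (Kera), whose loss flattens the cornea, stood at 55.1 FPKM [54.0 to 56.3] on 8608 fragments. Fibromodulin (Fmod), a regulator of fibril growth that is also abundant in sclera and tendon, stood at 49.4 FPKM. The 3 genes thus spanned a narrow range, with Lum 1.13-fold [1.10 to 1.16] above Kera and 1.26-fold [1.22 to 1.30] above Fmod. Dcn was 9.69-fold [9.49 to 9.90] above Lum, a log2 ratio of 3.28, or 2.51 as fragments. Prelp, a proteoglycan-like protein that links collagen to basement membranes, was lower at 23.1 FPKM. In class III, osteoglycin (Ogn, also called mimecan) stood at 63.4 FPKM, 2.74-fold [2.61 to 2.88] above Prelp. The Ogn value rests on a single transcript of 738 nt, and with fragments not divided by length the ratio to Prelp was gone (log2 0.0020). Opticin (Optc), a proteoglycan of the vitreous made by the ciliary body, was the lowest of the class at 3.14 FPKM [2.89 to 3.41], and Kera was 17.5-fold higher.

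Proteoglycan genes that neighbour each other in the genome differed widely in level. In the gene order of the RefSeq annotation of the Nile rat, Dcn, Lum, Kera and Epyc (epiphycan, a relative outside the rule) follow each other with no other protein-coding gene between them. Their levels ran from 603 to 62.2, 55.1 and 16.0 FPKM in that order, a 37.6-fold range. Optc, Prelp and Fmod also adjoin one another and spanned 15.7-fold, from 3.14 to 23.1 and 49.4 FPKM. Another run joins Ogn with Omd (osteomodulin), Aspn (asporin) and Ecm2. Here Ogn stood at 63.4 FPKM while its 3 neighbours lay at 1.71, 4.94 and 4.11 FPKM. The Ogn value rests on a transcript of 738 nt named by mouse alone. As fragments not divided by length the range was narrower, with 3040 for Ogn, 217 for Omd, 568 for Aspn and 712 for Ecm2. In each of the 3 runs the highest gene was a member under the rule. This was fixed for the run of Optc, Prelp and Fmod, where all genes are members. In the Dcn run only Epyc could have made it otherwise. Members and the related genes were also chosen with earlier results of these data known, so no conclusion is drawn from these top places. In a further run, the adjoining protease genes Adamts1 and Adamts5 stood at 6.98 and 7.48 FPKM, and their ratio was within counting error. As fragments not divided by length, Adamts1 was above Adamts5 (log2 ratio 1.05 [0.94 to 1.16]).

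**Figure D2:**
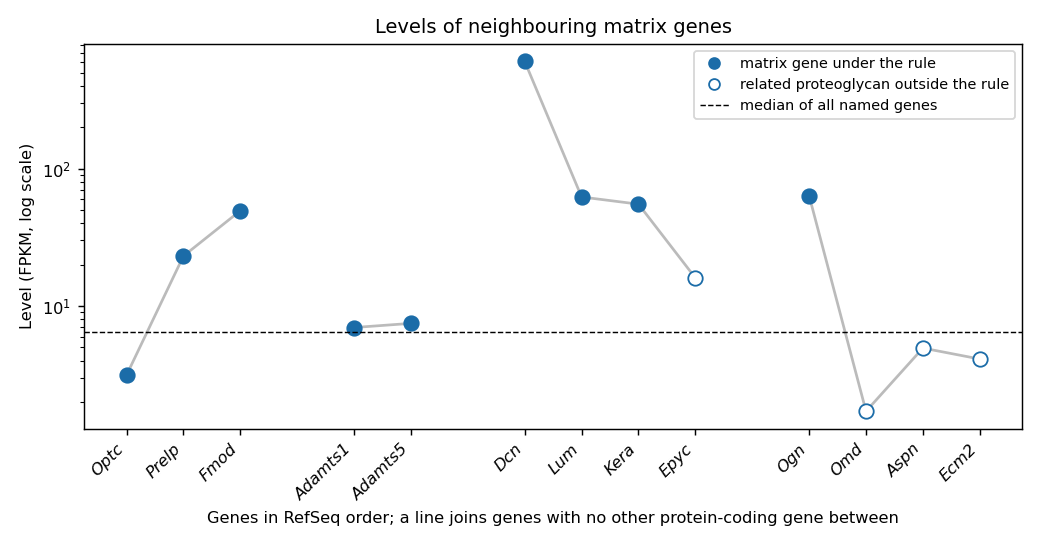
Levels in FPKM on a log axis of the 4 runs of adjoining genes in which more than 1 gene carried a transcript, in RefSeq gene order; filled points are members, open points are related proteoglycans outside the rule, and the dashed line is the median of all named genes. Levels within the 3 proteoglycan runs differ by 15.7-fold to 37.6-fold, and Adamts1 and Adamts5 lie at nearly the same height.

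Matricellular and adhesive glycoproteins held 28.4% of the set's FPKM in 7 genes. Of these, 4 were at FPKM 10 or more, against 34.0% of all named genes. Sparc (osteonectin), a collagen-binding protein that is secreted during matrix remodelling, stood at 403 FPKM [400.1 to 406] on 65382 fragments, the most of any member. Its relative Sparcl1 (hevin), known in brain as a protein that astrocytes secrete to promote synapses, stood at 84.3 FPKM [83.0 to 85.6], and Sparc was 4.78-fold [4.70 to 4.87] higher. This family of 2 genes held 91.2% of the FPKM of the class. Fibronectin (Fn1), the main adhesive glycoprotein for integrins, was at 8.59 FPKM [8.34 to 8.85] on a transcript of 7678 nt, the longest of any member, and Sparc was 46.9-fold above it. The log2 ratio of Fn1 to Sparc was -5.55, or -3.93 as fragments not divided by length.

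The thrombospondins, which bind matrix, growth factors and cell surface receptors, ranged from 2.81 to 13.8 FPKM. Thbs1, an activator of transforming growth factor beta and an inhibitor of vessel growth, stood at 13.8 FPKM [13.4 to 14.1], 1.60-fold [1.53 to 1.67] above Thbs2 at 8.60 FPKM. Thbs4, a pentameric family member best known from tendon and muscle, stood at 13.4 FPKM [12.8 to 13.9], within counting error of Thbs1. With fragments not divided by length, Thbs4 was lower than Thbs1 (log2 ratio -1.21). Thbs3 was the lowest at 2.81 FPKM. Skeletal muscle genes were present in the same pool, with all 4 markers measured (Tnnc2 174, Mb 127, Acta1 55.3 and Ckm 28.6 FPKM), and their part in the Thbs4 level was not tested.

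Elastic fibre genes and their cross-linking enzymes ranged from 1.73 to 13.8 FPKM. All 9 reached FPKM 1 and 1 reached FPKM 10, against 93.2% and 34.0% of all named genes. The class held 3.07% of the set's FPKM with a median of 6.79 FPKM. Elastin (Eln), the core of the elastic fibre, stood at 7.38 FPKM [6.92 to 7.86], the sum of transcripts of 4.96 and 2.42 FPKM. Fibrillin-1 (Fbn1), the microfibril protein of the lens zonule that is mutated in Marfan syndrome, stood at 6.79 FPKM [6.53 to 7.06]. The 1.09-fold [1.01 to 1.17] excess of Eln over Fbn1 turned around when the highest Eln transcript was used in place of the sum (log2 ratio -0.45), so the order of these genes was not settled. Fibulins include proteins that link elastin to microfibrils and basement membranes. The 3 measured under the rule lay at 8.21 FPKM for Fbln2, 7.74 FPKM for Fbln5 and 1.73 FPKM for Fbln7. Outside the rule, Efemp1 (fibulin-3) stood higher at 109 FPKM and Efemp2 (fibulin-4) stood at 6.77 FPKM.

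Lysyl oxidases, the copper enzymes that cross-link elastin and collagen, summed to 25.9 FPKM in 4 genes. Loxl1, which is needed for elastic fibre renewal and carries the main risk variants of exfoliation glaucoma in people, was the highest gene of the class at 13.8 FPKM [13.2 to 14.3]. It stood 3.02-fold [2.82 to 3.23] above Lox (4.56 FPKM) and 1.86-fold [1.73 to 2.01] above Eln. The log2 ratio of Loxl1 to Lox was 1.59 in FPKM and 0.72 as fragments. Loxl2, at 5.09 FPKM, was 1.12-fold [1.03 to 1.21] above Lox, and Loxl3 stood at 2.45 FPKM. The excess of Loxl2 over Lox turned around with fragments not divided by length (log2 ratio -0.59). The summed lysyl oxidases were 3.50-fold [3.27 to 3.76] above Eln. With a length-weighted mean of the Eln transcripts (4.19 FPKM), the log2 ratio to Eln moved from 0.90 to 1.71 for Loxl1 and from 1.81 to 2.62 for the summed lysyl oxidases.

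Among genes with a named transcript, inhibitor RNA exceeded protease RNA in the metalloproteinase system. Timp3, which unlike its relatives is bound to matrix and is mutated in Sorsby fundus dystrophy of the retina, stood at 125 FPKM [124 to 127] on 37358 fragments. Timp2, an inhibitor that also takes part in the activation of pro-MMP2 at the cell surface, stood at 108 FPKM [106 to 109]. Timp3 was thus 1.16-fold [1.14 to 1.18] above Timp2, and 8.03-fold [7.62 to 8.47] above Timp1, the inducible inhibitor, at 15.6 FPKM [14.8 to 16.4]. The log2 ratio of Timp3 to Timp1 was 3.01, or 4.72 as fragments not divided by length. These 3 genes held 13.2% of the set's FPKM, and the 12 Mmp genes held 3.78%.

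The Mmp class had a median of 3.13 FPKM. Each of its 12 genes was at FPKM 1 or more and 2 were at FPKM 10 or more, against 93.2% and 34.0% of all named genes. Mmp24 (MT5-MMP), a membrane-anchored enzyme known mainly from neurons, was the highest at 25.0 FPKM [24.3 to 25.7] on 4796 fragments. Its symbol came from the mouse column alone. Mmp2 (gelatinase A), the secreted enzyme that cleaves denatured collagen and basement membrane collagen, followed at 11.9 FPKM [11.5 to 12.4]. Mmp14 (MT1-MMP), the membrane enzyme that activates pro-MMP2, stood at 2.71 FPKM [2.47 to 2.97], and Mmp2 was 4.41-fold [3.99 to 4.87] above it. Another membrane-anchored enzyme, Mmp15, stood at 8.13 FPKM.

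The remaining Mmp genes lay between 1.76 FPKM for Mmp16 and 5.03 FPKM for Mmp11 (stromelysin-3). Mmp11 was the sum of 2 transcripts and stood at 3.84 FPKM with the higher of them and at 2.78 FPKM as their length-weighted mean, both below Mmp19. Mmp19 stood at 4.16 FPKM, Mmp23 at 3.56 FPKM, Mmp3 (stromelysin-1) at 2.62 FPKM, Mmp17 at 2.31 FPKM, Mmp28 (epilysin) at 2.07 FPKM and the collagenase Mmp13 at 1.93 FPKM. The 5 enzymes of the membrane type or MT-MMPs (Mmp14, Mmp15, Mmp16, Mmp17 and Mmp24) together held 56.0% of the Mmp FPKM, and Mmp24 alone held 35.1%. With Mmp24 left out, the other 4 held 32.2%. Mmp23 was not counted in this group. Mmp23, whose human name in the table was MMP23B, was the only member whose symbols differed between species.

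Summed over genes, the inhibitors stood 3.49-fold [3.42 to 3.57] above the Mmp genes, a log2 ratio of 1.80 [1.78 to 1.83]. This ratio moved with Mmp24, and without it the log2 ratio was 2.43 [2.39 to 2.47]. With symbols given alike by 2 or more species it was 2.85 [2.81 to 2.89]. That setting leaves out Mmp15, Mmp23 and Mmp24 but no measured Timp gene. With the Adamts genes added to the proteases, the inhibitors stood 2.50-fold [2.45 to 2.54] above them, and without Mmp24 the log2 ratio moved from 1.32 to 1.74. With symbols given alike by 2 or more species it was 2.08, with Adamts4, Adamts8 and Adamts19 left out as well. Of single pairs, Timp2 was 9.03-fold [8.66 to 9.42] above Mmp2, and Timp3 was 18.0-fold [17.2 to 18.8] above Adamts1. These are ratios of RNA levels. Protein amounts and enzyme activity were not measured. Genes without a named transcript are not in the sums. In the RefSeq annotation these were 9 of 19 Mmp genes and 9 of 19 Adamts genes, but 1 of 4 Timp genes. The gap was thus larger for the proteases, and its effect on the ratios was not tested.

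**Figure D3:**
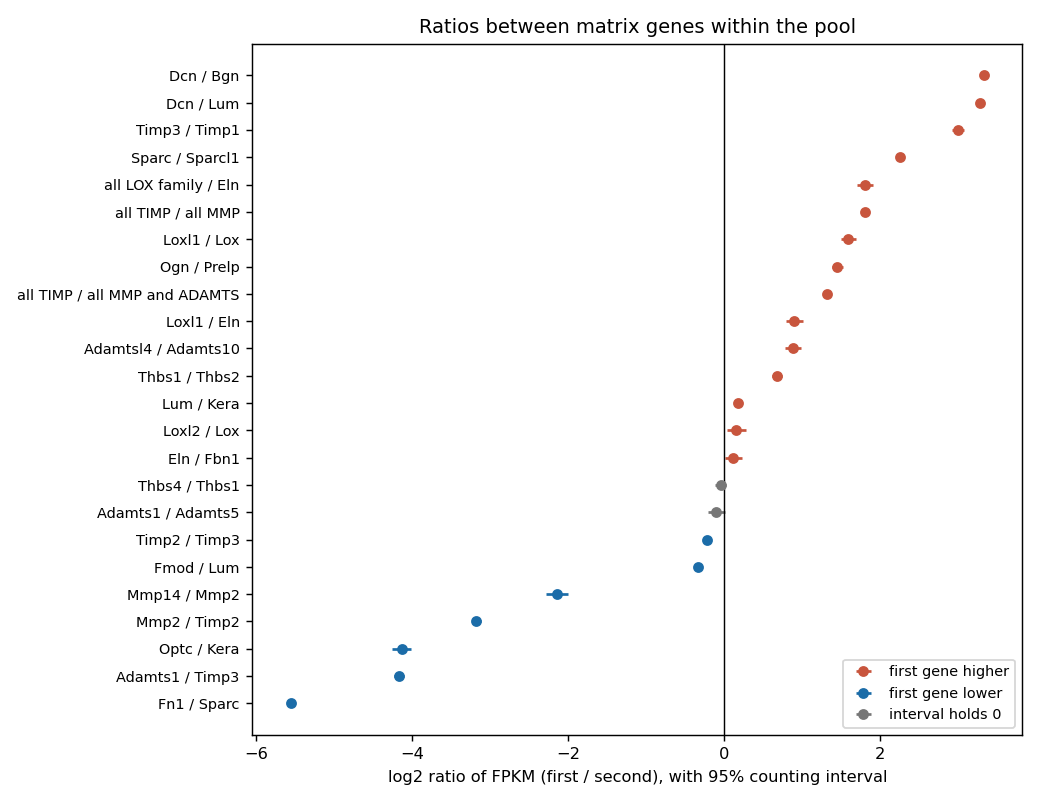
Log2 ratio of FPKM for the 24 pairs of genes or summed groups that could be measured, first over second, with 95% counting intervals. Ratios run from Fn1 over Sparc (-5.55) to Dcn over Bgn (3.34), and the intervals of Thbs4 over Thbs1 and Adamts1 over Adamts5 hold 0.

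ADAMTS proteases were the lowest of the larger classes. Of the 10 genes, 9 reached FPKM 1 and none reached FPKM 10, against 93.2% and 34.0% of all named genes. Their median was 1.60 FPKM. Among the enzymes that cut proteoglycans such as aggrecan and versican were both the highest and the lowest genes of the class. Adamts5 stood at 7.48 FPKM [7.02 to 7.96] and Adamts1 at 6.98 FPKM [6.68 to 7.29], against 1.20 FPKM for Adamts4 and 0.708 FPKM [0.536 to 0.917] for Adamts8. These 4 genes held 57.5% of the class. Adamts10, which binds fibrillin-1 and is mutated in Weill-Marchesani syndrome with its small spherical lens, stood at 4.40 FPKM [4.15 to 4.65], while Adamts17, mutated in a related syndrome, stood at 1.04 FPKM [0.831 to 1.29]. The procollagen-processing enzymes Adamts2 and Adamts3 stood at 1.94 and 1.25 FPKM. Adamts16 stood at 1.24 FPKM. Adamts19 stood at 2.22 FPKM as the sum of 2 transcripts, at 1.24 FPKM with the higher of them and at 1.10 FPKM as their length-weighted mean.

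The ADAMTS-like proteins resemble these enzymes without a protease domain, and several bind microfibrils. All 5 reached FPKM 1 and none reached FPKM 10, against 93.2% and 34.0% of all named genes. Adamtsl4, which is mutated in inherited dislocation of the lens, was the highest at 8.10 FPKM [7.76 to 8.46]. It was 1.84-fold [1.72 to 1.98] above Adamts10. Adamtsl5 stood at 3.68 FPKM and Adamtsl1 at 1.51 FPKM. Adamtsl2 and Adamtsl3 were sums of 2 transcripts, and their places depended on the sum. Adamtsl2 stood at 4.77 FPKM summed, 3.39 FPKM with the higher transcript, 2.28 FPKM as a length-weighted mean and 1.38 FPKM with symbols given alike by 2 or more species. Adamtsl3 stood at 3.20 FPKM summed, 2.29 FPKM with the higher transcript and 1.91 FPKM as a length-weighted mean.

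Hyaluronan synthases and the large proteoglycan versican were covered by a single gene. Has1, which makes hyaluronan at the plasma membrane, rested on 9 fragments of a 256 nt transcript and stood at 0.541 FPKM [0.247 to 1.03]. At FPKM 1 the interval did not settle whether it was detected. Has2, Has3 and Vcan had no transcript with their symbol and were not analysed here.

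Coverage by name differed between classes. The RefSeq annotation of the Nile rat lists 79 genes under the rule, of which 53 had a named transcript in the table. All 8 small leucine-rich proteoglycans and all 5 ADAMTS-like genes had one, against 10 of 19 Adamts genes, 10 of 19 Mmp genes and 3 of 4 Timp genes. The members Mmp3 and Mmp23 had no gene of that symbol in the annotation. Among the 26 genes without a named transcript were Tnc, Fbn2, Fbln1, Loxl4, Timp4 and Mmp9. A gene can lack a name because its transcript carried an Ensembl or GenBank identifier alone, so no level was read from a missing name.

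The depth behind the values was high for the leading members. The 17 genes at FPKM 10 or more rested on 1418 to 65382 fragments each, and the width of their intervals, divided by 2, was at most 5.24% of the level. The 38 lower genes rested on 9 to 4286 fragments. A single transcript carried 49 of the 55 genes, while Bgn, Eln, Mmp11, Adamts19, Adamtsl2 and Adamtsl3 had 2 transcripts each, and a sum is too high if these are pieces of 1 mRNA. Of the 61 transcripts, 18 were named by 1 species alone, 9 by mouse and 9 by human, and Sparc, Thbs2 and Optc were among those named by human alone. A fractional fragment count, which shows that fragments were divided between transcripts, was found in 36.1% of member transcripts and in 44.0% of all named transcripts. Dcn, Sparc, Lum, Kera, Ogn, Timp2 and Timp3 were among the members with a fractional count, so their intervals leave out the error of that division.

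Related matrix genes outside the rule were also described. Of 147 genes in 7 lists, 117 carried a symbol, and their median was 5.77 FPKM. Of these 117, 112 reached FPKM 1, against 93.2% of all named genes, and 38 reached FPKM 10, against 34.0%. The same shares of all named genes are the background for the counts of single lists below. Among the 10 other small leucine-rich proteoglycans, all measured, the median was 5.15 FPKM against 57.4 FPKM for the 8 members of that family. Members and lists were both chosen with earlier results of these data known, so no conclusion is drawn from this gap. Chad (chondroadherin) was the highest of the 10 at 21.9 FPKM. Nyx (nyctalopin), a protein of retinal ON bipolar cells, was at 5.36 FPKM. Of the partners of elastic fibres, 19 of 22 were measured with a median of 6.45 FPKM. Efemp1 (fibulin-3), which is mutated in an inherited macular drusen disease, stood out at 109 FPKM [107 to 111], 5 of the 19 reached FPKM 10, and the microfibril-binding Ltbp2 stood at 3.68 FPKM.

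Enzymes that build sulfated sugar chains were low, with 24 of 28 measured, 23 at FPKM 1 or more, 2 at FPKM 10 or more and a median of 3.92 FPKM. The sulfotransferases Chst2 (25.2 FPKM) and Chst5 (19.1 FPKM) were highest, and the dermatan sulfate epimerase Dse stood at 4.77 FPKM. Of the list on hyaluronan and aggregating proteoglycans, 14 of 20 genes were measured, with a median of 2.93 FPKM. Its highest gene was Impg1, a proteoglycan of the matrix between photoreceptors, at 98.9 FPKM, and the hyaluronan receptor Cd44 stood at 14.4 FPKM.

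The list of other proteases and regulators of matrix breakdown had a higher median than the Mmp class (3.13 FPKM). Its genes overlapped with that class, down to 1.22 FPKM for Adam19. Of 28 genes, 22 were measured, each of them was at FPKM 1 or more, 12 were at FPKM 10 or more, and the median was 18.6 FPKM. The lysosomal proteases Ctsb and Ctsd stood at 213 and 212 FPKM, and Bsg (basigin, an inducer of metalloproteinases and a partner of lactate transporters) stood at 164 FPKM. Htra1, a secreted serine protease linked to macular degeneration, stood at 139 FPKM [137 to 141], above Timp3. Reck, a membrane-bound inhibitor of metalloproteinases, stood at 4.99 FPKM. Of the matricellular proteins outside the rule, 20 of 30 were measured with a median of 8.40 FPKM, led by Myoc (myocilin) at 85.0 FPKM, Mgp (matrix Gla protein) at 53.2 FPKM and Tgfbi, a corneal dystrophy gene, at 53.1 FPKM. The fibrillar collagens, with 8 of 9 measured, had a median of 10.2 FPKM. Col1a2 was the highest of them at 144 FPKM, as the sum of 3 transcripts with 14542 fragments. Col1a1, on 1 transcript, stood at 39.0 FPKM with 11940 fragments.

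**Figure D4:**
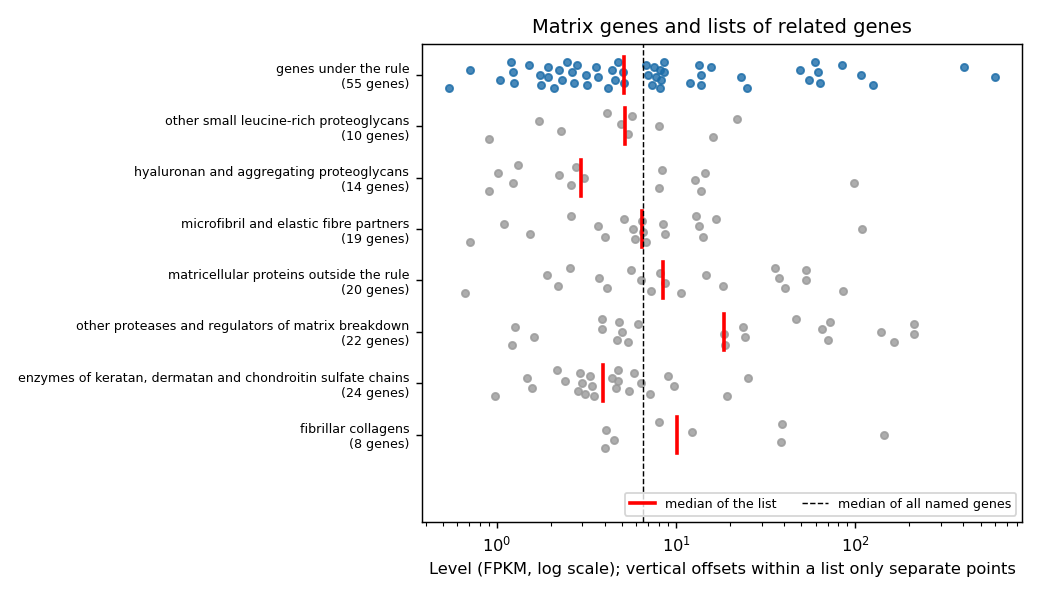
Levels in FPKM on a log axis of the 55 matrix genes (blue) and of the measured genes in 7 lists of related genes (grey); red bars are list medians and the dashed line is the median of all named genes. The list of other proteases and regulators has the highest median (18.6 FPKM), and no gene in these lists reaches the level of Dcn or Sparc.

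The label of eye tissue was checked against markers. All measured markers of lens, photoreceptor, pigment epithelium, corneal epithelium and corneal stroma were above FPKM 10, from 26.9 FPKM for Lrat to 3621 FPKM for Crygb. Of all named genes, 34.0% reached FPKM 10. For the cornea the check rests on few genes: 1 of 3 markers of its epithelium (Krt12) and 2 of 3 of its stroma (Kera and Ptgds) were measured. Of the ciliary body and iris markers, Myoc (85.0 FPKM) and Wfdc1 (19.5 FPKM) were above FPKM 10 and Optc was below it. Kera and Optc are markers that are also members of the set. Among the fibroblast markers, Col1a1 stood at 39.0 FPKM and Pi16 at 13.5 FPKM. Of the cartilage and bone list only Matn1 was measured, at 1.91 FPKM, and the blood vessel markers ranged from 3.91 FPKM for Cdh5 to 96.0 FPKM for Rgs5. Since the RNA came from mixed tissue, fewer cells of a type and less RNA per cell cannot be told apart for any gene named above.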

How the data were processed

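RNA of Nile rat eyes was sequenced. Per the labels' protocols, the library was pooled from 5 rats. Per the submitters' processing notes, Bowtie was used; its version, the assembly, the annotation and the counting method are not named in these sources. The table deposited by the authors gives each of 124439 transcripts an FPKM, an estimated count of fragments and a length, and its header states 64967222 mapped fragments. The deposited FPKM equals the estimated count divided by the full length and that total (all 124299 transcripts that hold fragments, relative tolerance 1e-05).

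The first symbol in the order mouse, rat, human of a deposited ortholog table, in capitals, named 15454 transcripts of 13982 genes. These held 47.2% of fragments. FPKM was summed per gene. Level intervals are 95% gamma (Fay-Feuer) Poisson intervals and ratio intervals 95% delta-method Poisson intervals. They cover counting error only, and PCR copies are not independent molecules. At FPKM 1 a transcript of 1000 nt holds 65.0 fragments. The upper limit for a count of 0 is 3 fragments, which is 0.0462 FPKM at that length. The thresholds were FPKM 1, 10 and 100.

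Of 33 planned ratios, 24 could be measured. The rule for named genes was every member at FPKM 10 or more, the extremes of each class and the members of ratios; further genes were named as examples after their values were seen. Members, lists and ratios were chosen with earlier results of these data known. RefSeq (assembly mArvNil1.pat.X) gave gene names and order, with at most 3 protein-coding genes allowed between neighbours. The interval code was tested on simulated fragments. The alternatives were other ways to combine transcripts, other naming, other thresholds, fragments in place of FPKM, a pseudocount of 1 and 2 sums with leading genes left out. Statistics used SciPy 1.17.1 with NumPy 2.4.6, tables pandas 2.3.3 and plots Matplotlib 3.10.9, all under Python 3.11.15.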

Additional observations from a re-analysis of the deposited data

How the results depend on the processing

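The table has 1 column, so leaving out single samples could not be run, and no paired analysis was possible because there is 1 group. Of the 24 ratios, Eln over Fbn1 turned around with the highest transcript (-0.45), the length-weighted mean (-0.70), symbols shared by 2 or more species (-0.45) and fragments in place of FPKM (-1.17, log2). Fragments also turned Loxl2 over Lox (-0.59) and Adamts1 over Adamts5 (1.05), took Ogn over Prelp to 0.0020 and took Thbs4 over Thbs1 to -1.21. All other ratios kept their direction and side under each alternative that gave them a value. Symbols shared by 2 or more species left 14 members and 6 ratios without a value.

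The median level was 4.56 FPKM with the length-weighted mean, 5.94 FPKM without transcripts under 500 nt and also with human names first, 6.79 FPKM among members at FPKM 1 or more, and 1132 as fragments (all named genes: 6.09, 6.73, 6.49, 7.11 and 1078, so the order turned with fragments). The share of named FPKM was 0.794% with the highest transcript, 0.818% with the length-weighted mean, 0.862% without transcripts under 500 nt, 1.02% with shared symbols, 0.934% as fragments and, in an alternative chosen after seeing the data, 0.357% without Dcn and Sparc. At FPKM 5, 29 of 55 members were detected, against 59.8% of all named genes. The levels of Bgn, Eln, Mmp11, Adamts19, Adamtsl2 and Adamtsl3 moved beyond counting error when transcripts were not summed.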
